A study of Mus musculus with 5 samples.

Results

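The genes described here are 10 transcripts that mark adipose progenitors and fibroblasts, measured in mouse inguinal fat (iWAT), which lies under the skin. They were taken by gene name, and all 10 were found among the 53700 genes of one deposited table and the 55416 of the other. Dpp4, Pi16 and Cd55 stood for early interstitial progenitors, and Pdgfra, Pdgfrb, Cd34, Ly6a, Dcn, Lum and Icam1 for the stroma in general. The study asked what thyroid hormone and the adipocyte thyroid hormone receptor β (TRβ, gene Thrb) do in fat, according to its title.

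Mice labelled ATRβKO that were injected with T3, floxed mice injected with T3, and floxed mice injected with PBS as vehicle (Veh) gave the libraries of the first table. T3 is triiodothyronine, the active thyroid hormone. Floxed mice, whose target gene lies between recombination sites, served as the control genotype. Injections were daily for 7 days on normal food, tissue was collected 24 hours after the last one, and each of these libraries came from pooled iWAT of 3 mice. The second table holds floxed and ATRβKO mice fed a high-fat diet (HFD) for 2 to 3 months, and only its floxed library was used here. The driver of recombination, the age and the sex of the animals are not given in the sources used here, nor is pooling for the diet libraries.

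Fat holds a layered stroma. Progenitors that carry DPP4 and PI16 lie in the fibrous interstitium between the lobules, and are regarded in mouse as the early cells that give rise to ICAM1-carrying preadipocytes, which sit nearer the fat cells and vessels. PDGFRα marks nearly all of these fibroblast-like cells, and they secrete the collagen-binding proteoglycans decorin and lumican. The title names the receptor of adipocytes, a cell type other than these stromal cells.

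With 1 library in each group there is no spread between animals to hold a difference against, and no test was made. Calls follow a rule of size. It asks for a log2 ratio of at least 1 in either direction, after 1 FPKM is added to each value, and for 1 FPKM or more in the higher library. FPKM scales the fragments of a gene by transcript length and by mapped depth. Folds are given without the added 1 FPKM. The summed FPKM was 748645 in the library labelled ATRβKO (T3), 787969 in floxed T3, 757606 in floxed HFD and 752569 in floxed Veh. The unused library labelled ATRβKO (HFD) stood apart at 1891065. Thrb was at 170.13 FPKM there against 4.38 FPKM in floxed HFD. By the size rule 47.7% of all genes compared were higher in that library and 32.0% lower, so nothing about its label is read from Thrb.

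Thrb, the targeted gene, was at 4.26 FPKM in the library labelled ATRβKO (T3), 4.43 in floxed T3 and 4.44 in floxed Veh. A whole-tissue value of the whole gene does not separate the receptor of adipocytes from that of other cells, so it checks nothing, and that library is named by its label throughout. The label of fat tissue was borne out by its defining transcripts, since Adipoq stood at 1482, 781 and 1498 FPKM in the same order. Pdgfra, the defining receptor of adipose fibroblasts, was detected in every library.

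**Figure D1:**
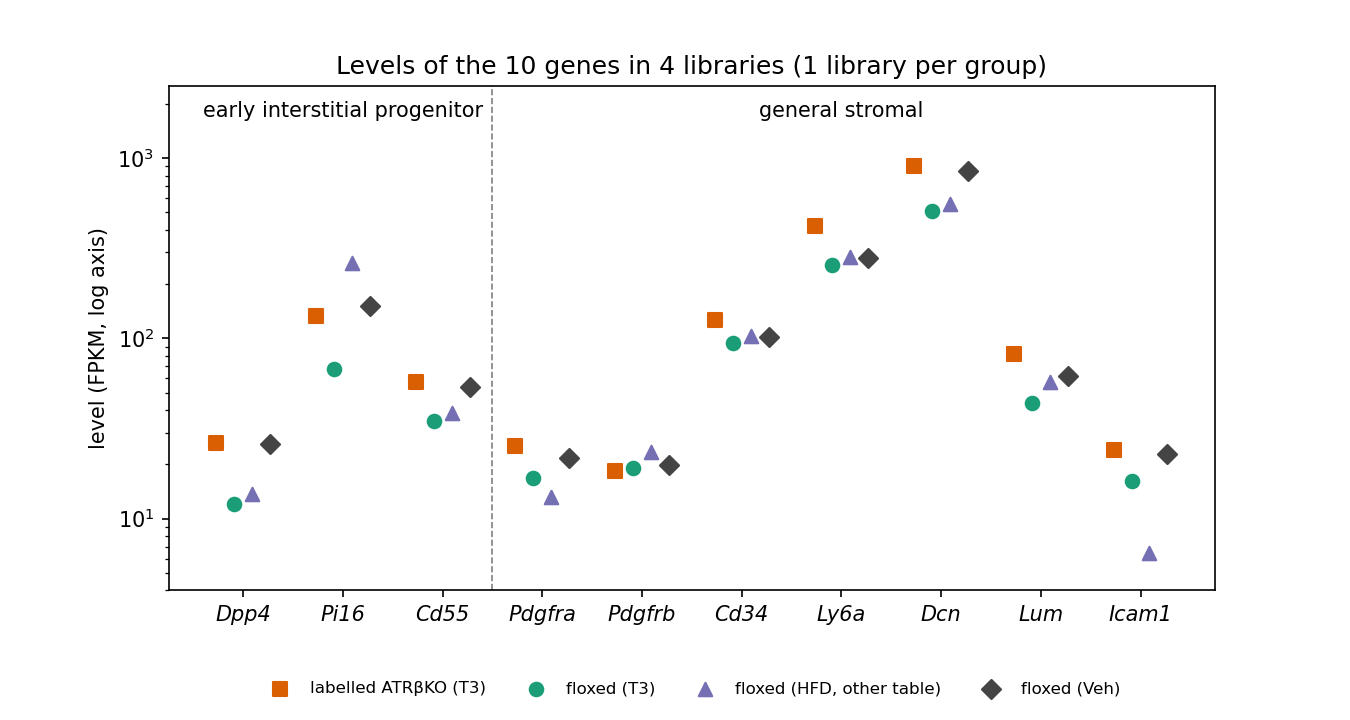
Levels of the 10 genes in FPKM (log axis) in the library labelled ATRβKO (T3), floxed T3, floxed HFD and floxed Veh, with 1 point per library and the early progenitor genes left of the dashed line. At the deposited scaling the floxed T3 point is the lowest of the first table for each gene but Pdgfrb (for Cd34 and Ly6a it is above floxed Veh after rescaling to a median of 0), and for Pi16 the HFD point is the highest of all 4. The HFD library belongs to another table.

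The first comparison set floxed mice injected with T3 against floxed mice injected with vehicle. At the deposited scaling Dpp4 and Pi16 were lower by the size rule in floxed T3, and Cd55 and the 7 general stromal genes were not. Across all 15031 genes compared, 3.98% were lower and 2.30% higher by that rule, and the median log2 ratio was -0.21. With whole tissue, fewer cells of a type and less RNA in each cell cannot be told apart.

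Dpp4 (ENSMUSG00000035000) encodes dipeptidyl peptidase 4, a surface enzyme that trims peptide hormones and the marker by which these progenitors are isolated. It was at 12.02 FPKM in floxed T3 and 25.85 FPKM in floxed Veh, 2.15-fold lower with T3 (log2 ratio -1.04). Pi16 (ENSMUSG00000024011) encodes peptidase inhibitor 16, a surface-anchored protein of fibroblasts. Its level was 68 FPKM in floxed T3 and 150.98 FPKM in floxed Veh, 2.22-fold lower (log2 ratio -1.14). Cd55 (ENSMUSG00000026399), a lipid-anchored inhibitor of complement, reached 34.68 FPKM in floxed T3 and 53.78 FPKM in floxed Veh, 1.55-fold lower (log2 ratio -0.62) and short of the rule. Its sequence-related neighbour Cd55b, which could divide reads with it, was listed at 0 in all 4 libraries.

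Both calls lay near the threshold and depended on how the libraries were scaled. When they were rescaled so that the median log2 ratio of all genes was 0, Dpp4 stood at -0.83 and Pi16 at -0.91, and neither was called, where 2.79% of genes were lower and 3.28% higher. After rescaling by trimmed means of M values they stood at -0.82 and -0.90. Leaving the 50 most abundant genes out of the total, or adding a pseudocount of 5 FPKM, ended the call of Dpp4 (-0.93 and -0.86). The direction was lower for both under each of these settings. At a size rule of 1.5-fold, Dpp4, Pi16, Cd55 and Dcn were lower, where 14.0% of all genes were lower and 5.22% higher.

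The 250 bases ahead of the RefSeq start site of each early gene are shown because Dpp4 and Pi16 were the genes called under T3, and the hormone's receptor binds DNA at paired short half-sites. The table is on build GRCm38.p6, whereas the submitters' processing notes name GRCm39, and it held 6 of the 10 genes. The letters run 5′ to 3′ toward the start site, at chr2:62412232-62412481 (minus strand) for Dpp4, chr17:29318632-29318881 (plus strand) for Pi16 and chr1:130462745-130462994 (minus strand) for Cd55. Capitals mark any match, on either strand, to the half-site AGGTCA, to its variant form GGGTCA, or to the core promoter motif TATAAA.
Dpp4: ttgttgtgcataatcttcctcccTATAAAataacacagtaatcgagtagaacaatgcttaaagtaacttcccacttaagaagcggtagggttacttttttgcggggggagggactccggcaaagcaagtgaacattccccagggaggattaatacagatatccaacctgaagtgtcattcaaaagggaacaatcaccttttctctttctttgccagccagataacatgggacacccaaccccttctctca
Pi16: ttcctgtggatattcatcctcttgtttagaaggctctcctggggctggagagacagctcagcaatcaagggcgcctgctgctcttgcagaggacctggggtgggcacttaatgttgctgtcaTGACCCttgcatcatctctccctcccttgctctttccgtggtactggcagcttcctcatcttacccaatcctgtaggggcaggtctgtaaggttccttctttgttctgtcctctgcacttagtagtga
Cd55: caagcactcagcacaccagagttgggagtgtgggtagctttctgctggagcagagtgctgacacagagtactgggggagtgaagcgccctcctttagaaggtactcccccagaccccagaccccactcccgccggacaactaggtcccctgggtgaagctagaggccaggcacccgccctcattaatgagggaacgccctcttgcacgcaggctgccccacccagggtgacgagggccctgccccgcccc
AGGTCA or its reverse complement TGACCT occurred in none of the 6 windows, against 14.0% of all 32851 windows of that length. GGGTCA or TGACCC occurred in Pi16 at position -128 and in Cd34 at -91, counted back from the start site, and in 11.6% of all windows. TATAAA or TTTATA occurred in Dpp4 at -227 and in 12.4% of all windows. A match is a run of letters and not a shown binding site, and a window without one says nothing about binding elsewhere.

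Among the general stromal genes, the secreted proteoglycans differed most between floxed T3 and floxed Veh. Dcn (ENSMUSG00000019929), which encodes decorin, a small leucine-rich proteoglycan that binds collagen fibrils and TGF-β, was at 509.35 FPKM in floxed T3 and 851.56 FPKM in floxed Veh (1.67-fold lower, log2 ratio -0.74). Lum (ENSMUSG00000036446), which encodes lumican and lies next to Dcn in the genome, was at 43.56 FPKM in floxed T3 and 61.59 FPKM in floxed Veh (log2 ratio -0.49). Dcn thus lay farther from vehicle than Cd55 did, so the early and general genes overlapped.

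Icam1 (ENSMUSG00000037405), an adhesion receptor for leukocyte integrins and the marker of committed preadipocytes, was at 16.24 FPKM in floxed T3 and 22.73 FPKM in floxed Veh (log2 ratio -0.46). Pdgfra (ENSMUSG00000029231), the receptor that defines the lineage, was at 16.89 FPKM in floxed T3 and 21.73 FPKM in floxed Veh (log2 ratio -0.35). These receptors sat between the proteoglycans and the median of all genes.

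Pdgfrb, Cd34 and Ly6a lay nearest to vehicle. Pdgfrb (ENSMUSG00000024620), a receptor of pericytes as well as fibroblasts, was at 19.06 FPKM in floxed T3 and 19.92 FPKM in floxed Veh (log2 ratio -0.06). Cd34 (ENSMUSG00000016494), a sialomucin of progenitors and capillaries, was at 94.55 FPKM in floxed T3 and 101.34 FPKM in floxed Veh (-0.10). Ly6a (ENSMUSG00000075602), the Sca-1 antigen, which endothelial cells and lymphocytes also carry, was at 255.28 FPKM in floxed T3 and 281 FPKM in floxed Veh (-0.14). After rescaling to a median of 0 these values turned to 0.16, 0.13 and 0.10, so no direction is given for them.

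The 3 early genes had a median log2 ratio of -1.04 and the 7 general genes one of -0.35, a difference of -0.70. A rescaling of a whole library leaves this difference as it is, apart from the pseudocount, and it ran from -0.80 without Icam1 to -0.55 when the general genes were limited to Pdgfra, Dcn and Lum. At the deposited scaling all 10 values lay below 0, as did 72.6% of all genes compared, though those of Pdgfrb, Cd34 and Ly6a turned under rescaling. Expressed within a library, the early genes were 0.96 log2 units below the general genes on average in floxed T3 and 0.36 below in floxed Veh.

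**Figure D2:**
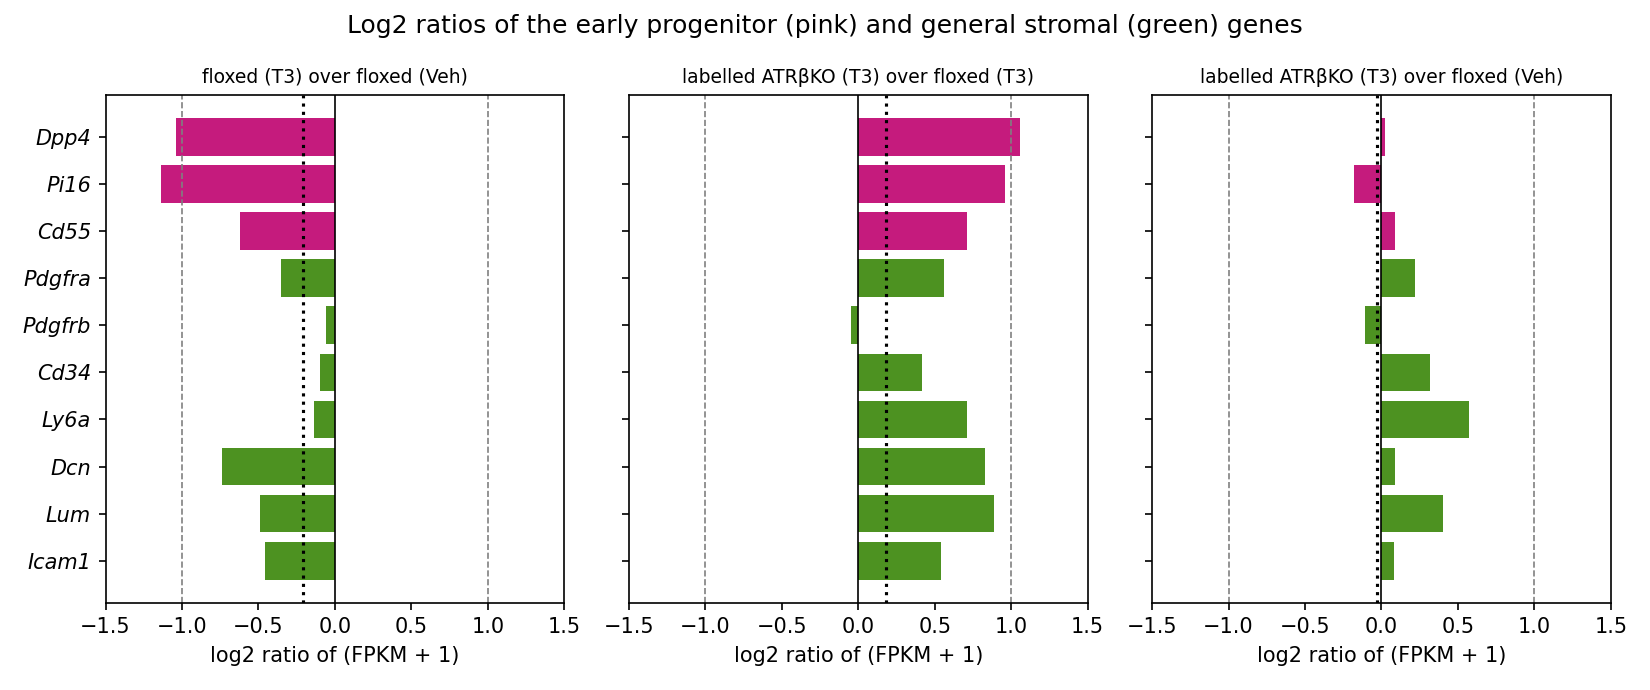
Log2 ratio of (FPKM + 1) for each gene in 3 comparisons, early genes in pink and general stromal genes in green, with dashed lines at the size rule and a dotted line at the median of all genes. Dpp4 and Pi16 pass -1 in floxed T3 over floxed Veh, Dpp4 passes 1 in the library labelled ATRβKO (T3) over floxed T3, and no gene passes either line in the third panel. These calls are at the deposited scaling and are lost after rescaling to a median of 0.

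The second comparison set T3-injected mice labelled ATRβKO against T3-injected floxed mice. Of the 10 genes, 9 were above floxed T3 and 1, Pdgfrb, was below it by less than its shift under rescaling. Dpp4 was the gene higher by the size rule, where 4.04% of the 14988 genes compared were higher and 2.01% lower. The log2 ratio over all of them had its median at 0.18. This comparison shares the floxed T3 library with the first.

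Dpp4 was at 26.18 FPKM in the library labelled ATRβKO (T3) and 12.02 FPKM in floxed T3, 2.18-fold higher (log2 ratio 1.06). Pi16 was at 133.12 FPKM in the library labelled ATRβKO (T3) and 68 FPKM in floxed T3, 1.96-fold higher (0.96) and just outside the rule. Cd55 was at 57.31 FPKM in the library labelled ATRβKO (T3) and 34.68 FPKM in floxed T3 (0.71). The call of Dpp4 was lost at 0.87 after rescaling to a median of 0, 0.86 by trimmed means, 0.93 without the 50 most abundant genes and 0.87 with a pseudocount of 5 FPKM. After rescaling to a median of 0, 2.78% of all genes were higher and 2.83% lower. At 1.5-fold, Dpp4, Pi16, Cd55, Ly6a, Dcn and Lum were higher, where 13.4% of all genes were higher and 5.06% lower.

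The general genes overlapped the early ones here too, as Lum and Dcn lay farther above floxed T3 than Cd55 did. Lum was at 81.71 FPKM in the library labelled ATRβKO (T3) against 43.56 FPKM in floxed T3 (log2 ratio 0.89), and Dcn at 905.52 against 509.35 FPKM (0.83). Ly6a was at 418.88 FPKM in the library labelled ATRβKO (T3) against 255.28 FPKM in floxed T3 (0.71). The surface receptors stood lower in this order, with Pdgfra at 25.45 against 16.89 FPKM (0.56), Icam1 at 24.02 against 16.24 FPKM (0.54) and Cd34 at 127.14 against 94.55 FPKM (0.42). Pdgfrb was at 18.33 FPKM in the library labelled ATRβKO (T3) against 19.06 FPKM in floxed T3 (-0.05). At a common total it turned to 0.02, so it has no stable direction.

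The early genes had a median log2 ratio of 0.96 and the general genes one of 0.56. The difference of 0.39 depended on which stromal genes were taken as general. It was 0.13 when these were limited to Pdgfra, Dcn and Lum, which are known chiefly from fibroblasts.

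The third comparison set the library labelled ATRβKO (T3) against floxed Veh, and none of the 10 genes was called, where 1.83% of 15175 genes were higher and 1.79% lower. None was called after rescaling to a median of 0 (1.89% of all genes higher and 1.77% lower) or at 1.5-fold (4.34% and 4.32%). Dpp4 was at 26.18 FPKM in the library labelled ATRβKO (T3) and 25.85 FPKM in floxed Veh (log2 ratio 0.02), Cd55 at 57.31 and 53.78 FPKM (0.09), and Pi16 at 133.12 and 150.98 FPKM (-0.18). Ly6a had the value farthest from 0, with 418.88 FPKM in the library labelled ATRβKO (T3) and 281 FPKM in floxed Veh (0.57). Lum followed at 0.40, Cd34 at 0.32 and Pdgfra at 0.22. The remaining general genes lay between -0.11 and 0.09. The early median was 0.02 and the general median 0.22, beside a median of -0.03 over all genes. Without replicates, closeness in these libraries does not show that the groups were alike.

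Each early gene was then set against the 8951 genes at 5 FPKM or more in all 3 libraries of the first table. Likeness was the distance between pairs of log2 ratios to vehicle, one for floxed T3 and one for the library labelled ATRβKO (T3). The nearest to Dpp4 were Gpat3, Arid5a and Cbx7 (distances 0.016, 0.020 and 0.048). The nearest to Pi16 were Lat, Ccl19 and Per1 (0.028, 0.043 and 0.047). The nearest to Cd55 were Mfap5, Pglyrp1 and Cr2 (0.012, 0.014 and 0.015). Mfap5, a microfibril protein, is itself on the list of early progenitor genes below. It was at 70.72 FPKM in the library labelled ATRβKO (T3), 42.40 in floxed T3 and 65.86 in floxed Veh. Pglyrp1 and Cr2, almost as near to Cd55, are not on that list, and neither are the genes nearest to Dpp4 and Pi16. These distances rest on 3 libraries and describe those libraries only.

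Counts in the lists that follow are at the deposited scaling, and a call lost after rescaling to a median of 0 is named as such. They stand beside the 3.98% of all genes lower and 2.30% higher in floxed T3 against floxed Veh, and the 4.04% higher and 2.01% lower in the library labelled ATRβKO (T3) against floxed T3. A list of 15 other genes of the early interstitial population did not stand as far from vehicle as Dpp4 and Pi16. In floxed T3 against floxed Veh none was called, 14 were below 0 (10 after rescaling to a median of 0), and the median log2 ratio was -0.37, about that of the general stromal genes. Il33, an alarmin cytokine of these cells, was at 5.60 FPKM in floxed T3 and 11.40 FPKM in floxed Veh (-0.91). Limch1, an actin-binding protein, was at 7.15 and 12.70 FPKM (-0.75) and Efhd1, a calcium-binding mitochondrial protein, at 12.88 and 19.44 FPKM (-0.56). Wnt2, a secreted Wnt ligand, was at 2.05 FPKM in floxed T3 and 3.36 FPKM in floxed Veh (-0.52), and was named for its place in this population after its value was seen. In the library labelled ATRβKO (T3) against floxed T3 none of the 15 was called, all were above 0, and the median was 0.55.

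Genes of later or parallel stromal states gave medians near that of the general stromal genes. Of 14 committed preadipocyte genes none was called in floxed T3 against floxed Veh, 8 were below 0 and 6 above, and the median log2 ratio was -0.31. Apod, a lipocalin, was at 47.31 FPKM in floxed T3 and 92.98 FPKM in floxed Veh (-0.96), whereas the basement membrane collagen Col4a2 was at 159.45 and 99.35 FPKM (0.68). Vcam1, a leukocyte adhesion receptor, was at 14.37 and 23.62 FPKM (-0.68), and Penk, an opioid peptide precursor, at 7.60 and 12.96 FPKM (-0.70). Of 8 genes of the CD142-carrying stroma none was called and the median was -0.28. Bmp3, a secreted BMP family ligand, was at 2.64 FPKM in floxed T3 and 5.01 FPKM in floxed Veh (-0.72), and F3, which encodes CD142 itself, at 27.08 and 20.47 FPKM (0.39).

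In the library labelled ATRβKO (T3) against floxed T3, 1 of the 14 committed preadipocyte genes was higher by the size rule, Apod, at 102.20 against 47.31 FPKM (log2 ratio 1.10). The median of that list was 0.44. Of the 8 CD142 genes 1 was higher, Clec11a, a secreted growth factor, at 3.15 against 1.01 FPKM (1.05), a low level. It was named after its value was seen. Both calls were lost after rescaling to a median of 0.

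Matrix genes of fibroblasts lay mostly on the same side as Dcn and Lum. Of 17 general fibroblast genes none was called in floxed T3 against floxed Veh, 15 were below 0, and the median log2 ratio was -0.46. Mmp2, a gelatinase, was at 63.19 FPKM in floxed T3 and 114.73 FPKM in floxed Veh (-0.85), and Fbln1, an elastic fibre protein, at 7.86 and 14.84 FPKM (-0.84). Timp2, an inhibitor of metalloproteinases, was at 110.01 and 179.51 FPKM (-0.70). Pcolce, the enhancer of procollagen cleavage, lay on the other side, at 141.26 FPKM in floxed T3 and 81.13 FPKM in floxed Veh (0.79). In the library labelled ATRβKO (T3) against floxed T3, 5 of the 17 passed the rule as higher, none as lower, and the median was 0.76, where 4.04% of all genes were higher. These were the collagens Col1a1, Col1a2 and Col3a1, with Mmp2 at 131.92 against 63.19 FPKM and Timp2 at 226.04 against 110.01 FPKM. After rescaling to a median of 0, 2 of the 17 were called, Col1a1 and Col1a2.

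Dcn and Lum belong to the small leucine-rich proteoglycans, of which 9 of 11 were compared. In floxed T3 against floxed Veh all 9 were below 0 with a median log2 ratio of -0.45, and 1 was lower by the size rule, Podn, which encodes podocan. It was at 19.96 FPKM in floxed T3 and 46.76 FPKM in floxed Veh (-1.19), a call lost after rescaling to a median of 0. Prelp was at 75.82 FPKM in floxed T3 and 110.75 FPKM in floxed Veh (-0.54). Against floxed T3 all 9 were above 0 in the library labelled ATRβKO (T3), with a median of 0.62, and Podn was the 1 called, at 48.84 against 19.96 FPKM (1.25), also after that rescaling. Kera and Epyc, which lie in the same cluster as Dcn and Lum, were at or below 0.15 FPKM in each library.

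The ligands of PDGFRα and PDGFRβ did not share 1 direction. Of 4 PDGF genes none was called in either comparison. Pdgfc was at 6.56 FPKM in floxed T3 and 9.30 FPKM in floxed Veh (log2 ratio -0.45) and Pdgfa at 4.22 and 5.44 FPKM (-0.30), both ligands of PDGFRα. Pdgfd, a ligand of PDGFRβ, was at 12.05 and 8.67 FPKM (0.43) and Pdgfb, which binds both receptors, at 12.76 and 10.11 FPKM (0.31).

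Among relatives of Dpp4, Fap, the fibroblast activation protease, was at 9.06 FPKM in floxed T3 and 13.32 FPKM in floxed Veh (log2 ratio -0.51). The intracellular peptidases Dpp8 and Dpp9 were at -0.09 and 0.08. Dpp4 was the 1 of 5 family genes that was called, a call lost after rescaling to a median of 0. Among complement regulators, Cr1l was at 45.93 FPKM in floxed T3 and 52.54 FPKM in floxed Veh (-0.19) and Cd59a at 48.39 and 42.78 FPKM (0.17), beside Cd55 at -0.62. Of the Ly6 genes that neighbour Ly6a, Ly6c1 was at 348.06 FPKM in floxed T3 and 333.26 FPKM in floxed Veh (0.06), and Ly6c2 at 35.28 and 51.83 FPKM (-0.54). These genes have similar sequences, so reads could be divided between them.

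Genes of TGF-β signalling, which holds early adipose progenitors back from differentiation in mouse, were all below 0 in floxed T3 against floxed Veh, 9 of 9 (6 of 9 after rescaling to a median of 0), with a median log2 ratio of -0.43. The ligand Tgfb3 was at 4.28 FPKM in floxed T3 and 6.78 FPKM in floxed Veh (-0.56), and Tgfb1 at 32.42 and 43.91 FPKM (-0.43). The receptor Tgfbr2 was at 57.19 and 60.89 FPKM (-0.09).

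**Figure D3:**
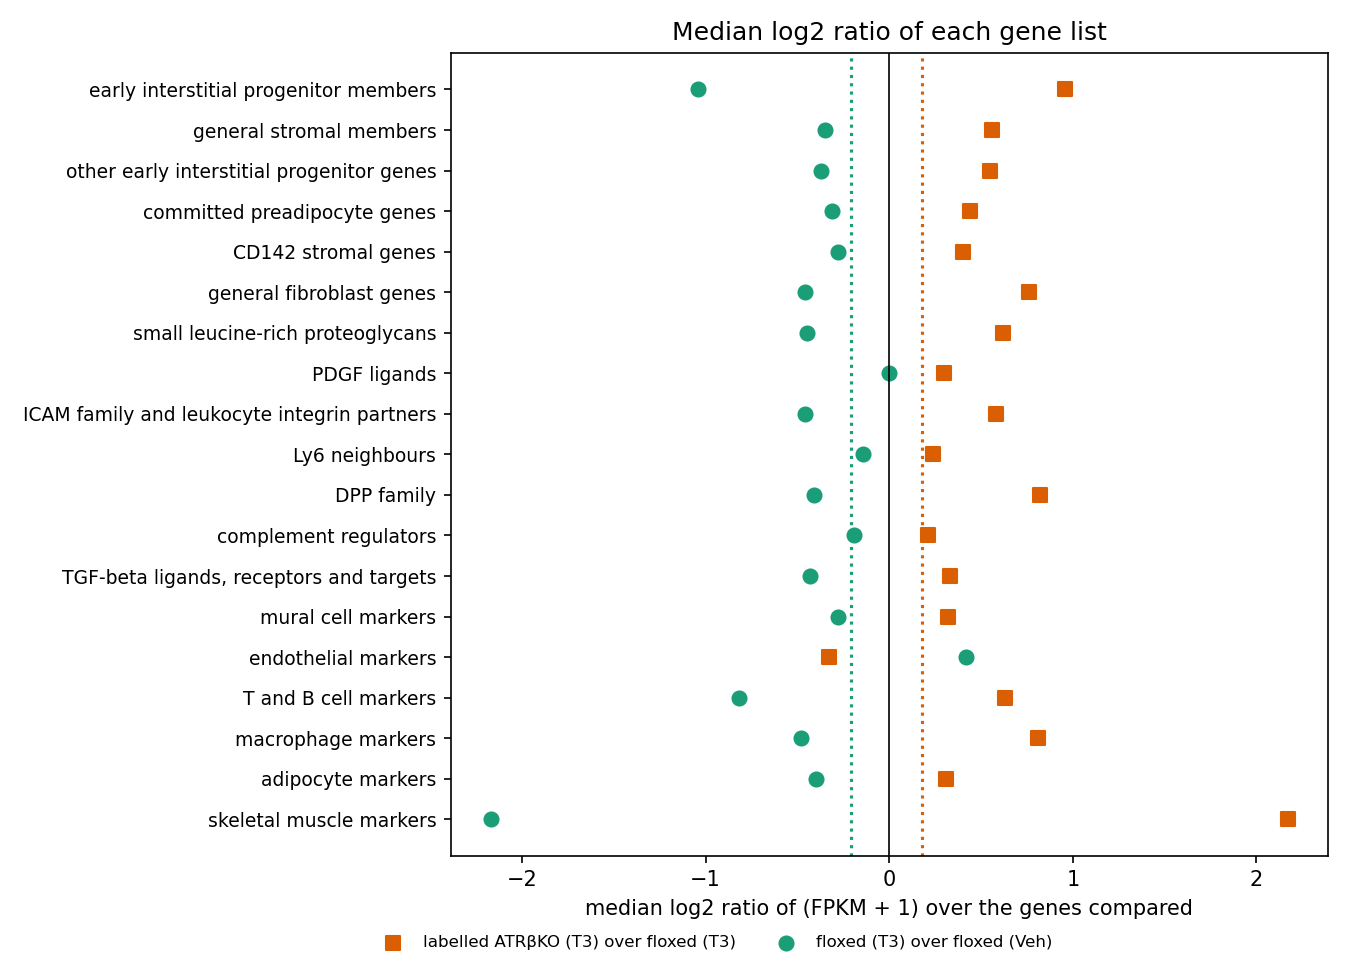
Median log2 ratio of (FPKM + 1) of each gene list for the library labelled ATRβKO (T3) over floxed T3 (squares) and floxed T3 over floxed Veh (circles), with dotted lines at the medians of all genes. The early genes lie at 0.96 and -1.04, skeletal muscle markers farther out at 2.17 and -2.17, and endothelial markers on the other side at -0.33 and 0.42.

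Markers of other cell types also differed between these libraries. T and B cells are among the cells that can carry Dpp4, Cd55, Icam1 and Ly6a. Of their 10 markers 4 were lower by the size rule in floxed T3 against floxed Veh (Cd3g, Lck, Cd3d and Cd3e), where 3.98% of all genes were, and all were below 0, with a median log2 ratio of -0.82. After rescaling to a median of 0 the call of Cd3e was lost and 3 remained. In the library labelled ATRβKO (T3) against floxed T3 all 10 were above 0, with a median of 0.63, and 2 were higher by the rule, Cd3d and Lck, both lost after that rescaling. Their summed level was 734 FPKM in the library labelled ATRβKO (T3), 504 in floxed T3, 702 in floxed HFD and 791 in floxed Veh, and none was listed at 0. Cd3e, part of the T cell receptor complex, was at 10.50 FPKM in floxed T3 and 24.66 FPKM in floxed Veh (-1.16). The ratio of Dpp4 to Cd3e was 1.44 in the library labelled ATRβKO (T3), 1.14 in floxed T3 and 1.05 in floxed Veh. The part of these cells in the Dpp4 result was not tested. In floxed HFD, Cd3e was at 0.58 FPKM and Dpp4 at 13.74 FPKM, a ratio of 23.7.

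Skeletal muscle markers were lower by the size rule in 9 of 10 cases in floxed T3 against floxed Veh, with a median log2 ratio of -2.17, and higher in 10 of 10 in the library labelled ATRβKO (T3) against floxed T3, with a median of 2.17. After rescaling to a median of 0 these counts were 9 and 9. They summed to 2514 FPKM in the library labelled ATRβKO (T3), 550 in floxed T3, 10919 in floxed HFD and 2495 in floxed Veh. Macrophage markers had a median of -0.48 with 1 of 9 lower, Trem2, a call lost after that rescaling, and summed to 2282, 1326, 1123 and 1836 FPKM in the same order. All 9 were above 0 in the library labelled ATRβKO (T3) against floxed T3, with a median of 0.81, and Trem2 was higher by the rule with and without rescaling to a median of 0. Adipocyte markers had a median of -0.40 with 1 of 8 lower, Car3, and summed to 11670, 7062, 19607 and 12733 FPKM. Their median was 0.31 in the library labelled ATRβKO (T3) against floxed T3, and Car3 was the 1 called, a call lost after rescaling to a median of 0. None of these markers was listed at 0, and their part in the stromal results was not tested.

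Endothelial markers lay on the other side of 0. Of 11 endothelial markers 9 were above 0 in floxed T3 against floxed Veh, none was called, and the median log2 ratio was 0.42, with sums of 446, 574, 522 and 439 FPKM in the library labelled ATRβKO (T3), floxed T3, floxed HFD and floxed Veh. The ratio of Cd34 to the endothelial gene Pecam1 was 1.69, 1.09, 1.56 and 1.23 in that order. Mural markers had a median of -0.28 with none of 10 called, and the ratio of Pdgfrb to the pericyte gene Rgs5 was 0.30 in the library labelled ATRβKO (T3), 0.211 in floxed T3, 0.338 in floxed HFD and 0.26 in floxed Veh. How much of Cd34 and Pdgfrb came from vessels was not tested. Markers of mammary epithelium summed to at most 4.64 FPKM in each of these libraries and those of mesothelium to at most 1.06 FPKM, so these cells were near the limit of detection.

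The floxed HFD library showed another arrangement of the same genes. As its table could have been normalized separately, levels are placed side by side and no ratio across tables is given. Pi16 was at 261.51 FPKM in floxed HFD, beside 150.98 in floxed Veh, while Dpp4 was at 13.74 beside 25.85 and Cd55 at 38.32 beside 53.78. Among general genes, Icam1 was at 6.41 FPKM in floxed HFD beside 22.73 in floxed Veh, Pdgfra at 13.17 beside 21.73 and Dcn at 558.02 beside 851.56. Lum (57.26 beside 61.59), Cd34 (103.64 beside 101.34), Ly6a (281.15 beside 281) and Pdgfrb (23.45 beside 19.92) were nearly level as deposited. The early markers were not all on 1 side in the deposited levels, as Pi16 stood above and Dpp4 and Cd55 below. A difference of scale between the tables could move these sides, so ratios within each library are given next.

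Ratios of genes within a library do not depend on its scaling. They do depend on the transcript lengths used, which could differ between tables that list 53700 and 55416 genes. Pi16 stood at 19.0 times Dpp4 in floxed HFD, against 5.08 in the library labelled ATRβKO (T3), 5.66 in floxed T3 and 5.84 in floxed Veh. The 3 injected groups therefore held Pi16 and Dpp4 in a narrow ratio that the diet library did not share. Relative to Pdgfra, Pi16 was at 5.23 in the library labelled ATRβKO (T3), 4.03 in floxed T3, 19.9 in floxed HFD and 6.95 in floxed Veh. Dpp4 over Pdgfra was 1.03, 0.712, 1.04 and 1.19 in that order, and Cd55 over Pdgfra 2.25, 2.05, 2.91 and 2.47. Over Pdgfra, floxed T3 thus had the lowest value of the 4 libraries for each early gene, but this did not hold over Dcn for Cd55. As a percentage of Dcn, Cd55 was at 6.33% in the library labelled ATRβKO (T3), 6.81% in floxed T3, 6.87% in floxed HFD and 6.32% in floxed Veh. Dpp4 was at 2.89%, 2.36%, 2.46% and 3.04% of Dcn in that order, and Pi16 at 14.7%, 13.4%, 46.9% and 17.7%.

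The ratio of Dpp4 to Icam1, an early over a committed marker, was 1.09 in the library labelled ATRβKO (T3), 0.74 in floxed T3, 2.14 in floxed HFD and 1.14 in floxed Veh. Icam1 over Pdgfra was 0.944, 0.962 and 1.05 in the first table's libraries in the same order and 0.487 in floxed HFD. Other committed preadipocyte genes did not all go with Icam1 in floxed HFD. Vcam1 was at 7.05 FPKM there beside 23.62 in floxed Veh, but Zfp423 was at 19.96 beside 7.80 and Col15a1 at 224.04 beside 84.41. The ratio of Dpp4 to Icam1 thus describes these genes and not early over committed cells. The Icam1 partners Itgal and Itgb2, subunits of the leukocyte integrin LFA-1, were at 1.52 and 23.18 FPKM in floxed HFD beside 18.94 and 43.39 FPKM in floxed Veh. Food, duration, injections and table all differed between floxed HFD and floxed Veh and cannot be told apart.

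**Figure D4:**
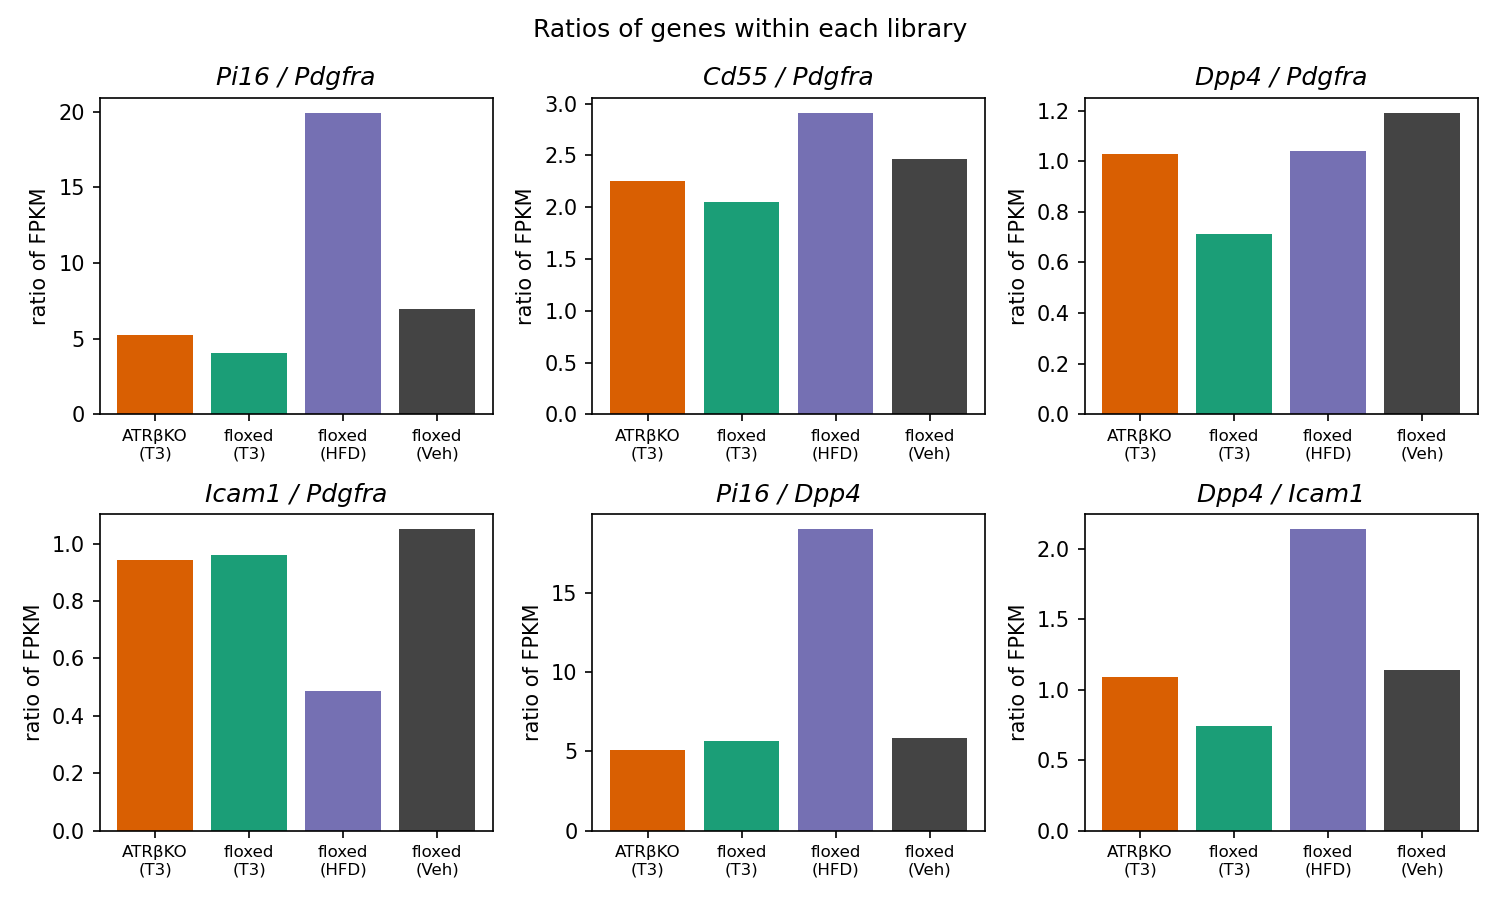
Ratios of FPKM between pairs of genes within each library, with 1 bar per library for the library labelled ATRβKO (T3), floxed T3, floxed HFD and floxed Veh. Pi16 over Dpp4 lies between 5.08 and 5.84 in the first table and at 19.0 in floxed HFD, and Dpp4 over Icam1 is lowest in floxed T3 at 0.74.

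The order of levels was nearly the same in all 4 libraries. Dcn ranked 1, Ly6a 2, Lum 5 and Cd55 6 in each. Pi16 ranked 3 and Cd34 4 except in floxed T3, where Cd34 (94.55 FPKM) came before Pi16 (68 FPKM). Dpp4 ranked 7 in the library labelled ATRβKO (T3), 10 in floxed T3, 8 in floxed HFD and 7 in floxed Veh. Its neighbours at the low end, Pdgfra, Icam1 and Pdgfrb, lay within a few FPKM of each other in the first table, and with 1 library per group their order is not resolved. Antisense genes overlap the exons of Dpp4, Pi16, Cd55, Pdgfra, Cd34 and Icam1, and were at 0.76 FPKM or less in each library.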

How the data were processed

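RNA of iWAT was sequenced as Illumina TruSeq libraries with paired reads of 150 bases, per the labels' protocols. HISAT2, StringTie and build GRCm39 are listed, with no roles, in the submitters' processing notes. No version is listed. The authors deposited values here treated as FPKM. The unit has no header and rests on the values themselves, which are not whole and have unequal sums. Strand handling is not given in the sources used here. FPKM depends on the whole library, so abundant genes lower the values of all others.

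Depth is not given. Low values of single-exon genes did not fall on clear steps (best mean cosine 0.21 to 0.26, where 1 is exact), so whole reads were not recovered and no counting interval is printed.

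Log2 ratios were computed with Python 3.11.15 and pandas 2.3.3. Those of the comparisons lie within the first table. The flagged calls in the unused library were made against floxed HFD, within the second. The procedure was tested on simulated data. Alternatives were pseudocounts of 0.1 and 5, a floor of 5 FPKM or none, 4 rescalings, size rules of 1.5-fold and 4-fold, and other member groups. The rescalings of the list calls were added after seeing the data. Members and lists were chosen with earlier results of these data known. The text names all members, up to 4 genes per list with the largest absolute log2 ratio of floxed T3 over floxed Veh at 5 FPKM (1 FPKM for the early list), and the 3 nearest genes to each early one. Other named genes were chosen after their values were seen. Values of some genes that this rule takes are not reported here. Overlaps between genes were read from GENCODE M21, whose build differs.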

Additional observations from a re-analysis of the deposited data

Results flagged for a closer look

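Icam1 was at 24.73 FPKM in the library labelled ATRβKO (HFD), a column that the comparisons do not use, and at 6.41 FPKM in floxed HFD. It was picked out as the 1 of the 10 genes higher by the size rule there, while 5 were lower. By the same rule 47.7% of 17711 genes were higher and 32.0% lower in that library. Thrb, the gene its label names as lost in adipocytes, was at 170.13 FPKM there against 4.38 FPKM in floxed HFD. With such shares over all genes, no direction is drawn from this library for Icam1 or Thrb.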

How the results depend on the processing

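Of the summary values recomputed, 115 kept their direction and their side of the threshold or moved little, and 19 did not. In floxed T3 over floxed Veh, the early median of -1.04 was -0.86 with a pseudocount of 5 FPKM, -0.83 after rescaling to a median of 0, -0.82 by trimmed means and -0.93 without the 50 most abundant genes. The count of 2 called genes became 1, 0, 0 and 1 under these settings, 4 at 1.5-fold (all lower, beside 14.0% of all genes) and 0 at 4-fold. In the library labelled ATRβKO (T3) over floxed T3, the count of 1 became 0 with a pseudocount of 5 FPKM, after rescaling to a median of 0, by trimmed means, without the 50 most abundant genes and at 4-fold, 2 at a common total and 6 at 1.5-fold (all higher, beside 13.4%). The early median of 0.96 became 1.03 at a common total. In floxed HFD the early genes stood at -0.14 log2 units relative to the general genes. Under the other settings this value ran from -0.64 to 0.08, the latter without Cd55. The rescalings moved the median of all genes from -0.21 to between -0.26 and 0.01 in the first comparison and changed the split of higher and lower genes from 346 and 598 to 506 and 422 by trimmed means, and from 606 and 302 to 407 and 421 in the second. No gene of the 10 was called in the third comparison under any setting run. The causes of these shifts, other than the settings themselves, were not tested. No paired analysis was possible because each group has 1 library. Values cannot be set against animals, and depth is unknown.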
